A study of Mus musculus with 6 samples.

Results

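The genes described here are 10 regulators of the fasting response of the liver, the glucagon receptor gene *Gcgr*, the catalytic kinase gene *Prkaca*, the transcription factor genes *Creb1* and *Creb3l3*, the coactivator genes *Crtc2*, *Ppargc1a* and *Ppargc1b*, the glucocorticoid receptor gene *Nr3c1*, and 2 genes that the glucocorticoid receptor is known to induce, *Fkbp5* and *Tsc22d3*. They were taken by gene symbol as a group of known function, a choice made with earlier results of these data known. They make up 10 of the 45777 genes in the deposited table, and 10 of 10 were among the 18636 genes that were tested.

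Glucagon, released from the pancreas during fasting, binds its receptor on hepatocytes and raises cAMP, which frees the catalytic subunit of protein kinase A (PKA) from its regulatory subunits. PKA phosphorylates CREB, and dephosphorylated CRTC2 enters the nucleus and joins CREB on genes of gluconeogenesis and on *Ppargc1a*, which encodes PGC-1α, a coactivator of nuclear receptors in fatty acid oxidation and gluconeogenesis. Glucocorticoids rise in fasting too and act through a ligand-bound nuclear receptor, whose induction of *Fkbp5*, a co-chaperone that lowers the receptor's affinity for hormone, and of *Tsc22d3*, which encodes the leucine zipper protein GILZ, is widely read as a sensor of receptor activity.

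Liver RNA was sequenced from 3 *Pak4* flox/flox mice without Cre (WT) and from 3 mice, littermates of that line, that carried Alb-Cre besides *Pak4* flox/flox (LKO), with 1 library per mouse. All were C57BL/6 males, 8 weeks old and fasted for 24 h, and both genotypes carried the floxed *Pak4* alleles, so that Cre was the genetic difference between them. Cre was made from the albumin promoter, which is active in hepatocytes. The labels name a hepatocyte-specific knockout of *Pak4*, a gene for a p21-activated kinase, and its level in each cell type was not measured. No fed mice were in the series, so that every value describes fasted liver and none describes a response to fasting.

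The total counts were 45934632 to 59576437 per mouse. Read counts were scaled by the TMM method of edgeR to CPM, which divides them by the library's total count times a TMM factor. The factors are set so that the bulk of genes shows no difference between libraries. A gene passed the test when its adjusted p-value (edgeR's quasi-likelihood test, Benjamini-Hochberg adjustment over all tested genes) was under 0.05. The p-values set the difference between the genotypes against the spread between these mice, which edgeR estimates partly from other genes. *Pak4* stood at 3.59, 3.21 and 4.097 CPM in WT mice 1, 2 and 3, the order used throughout, and at 1.93, 1.49 and 3.22 CPM in LKO mice 1, 2 and 3, with a log2 fold change of −0.71 (SE 0.31, adjusted p = 0.10 by the edgeR test). The library of LKO mouse 3 therefore lay within the WT range of CPM. Its 149 read counts were fewer than the lowest WT count of 210, and its 0.845 TPM lay below the lowest WT value of 2.31. TPM is a unit that accounts for gene length and takes no TMM factor. The table holds 1 count for the whole gene, and the removed part of *Pak4* could not be looked at on its own. LKO mouse 3 also stood apart in several genes described here, and for the genes it moves most the values without it are given as well. Of the 8 hepatocyte markers all were measured, and their summed level was 35353 to 40277 TPM in WT mice and was 23348 to 37500 TPM in LKO mice. In CPM 2 of the 8 were higher and 2 lower in LKO mice, against 19.6% and 20.5% of all tested genes. In bulk tissue, fewer cells of a type and less RNA per cell cannot be told apart.

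Of the 10 regulators, *Ppargc1a* and *Fkbp5* were higher and *Prkaca* was lower in LKO than in WT liver, and the other 7 did not pass the test. Over all tested genes, 40.1% passed, 19.6% as higher and 20.5% as lower in LKO mice, so that 3 of 10 is not above the background. The CPM of the genotypes did not overlap for *Prkaca*, *Ppargc1a* and *Fkbp5*, against 54.0% of all tested genes. In TPM, 6 of the 10 (*Gcgr*, *Prkaca*, *Creb1*, *Crtc2*, *Creb3l3* and *Nr3c1*) did not overlap, each lower in LKO mice, against 77.9% of all tested genes. The median log2 fold change of all tested genes was −0.04.

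**Figure D1:**
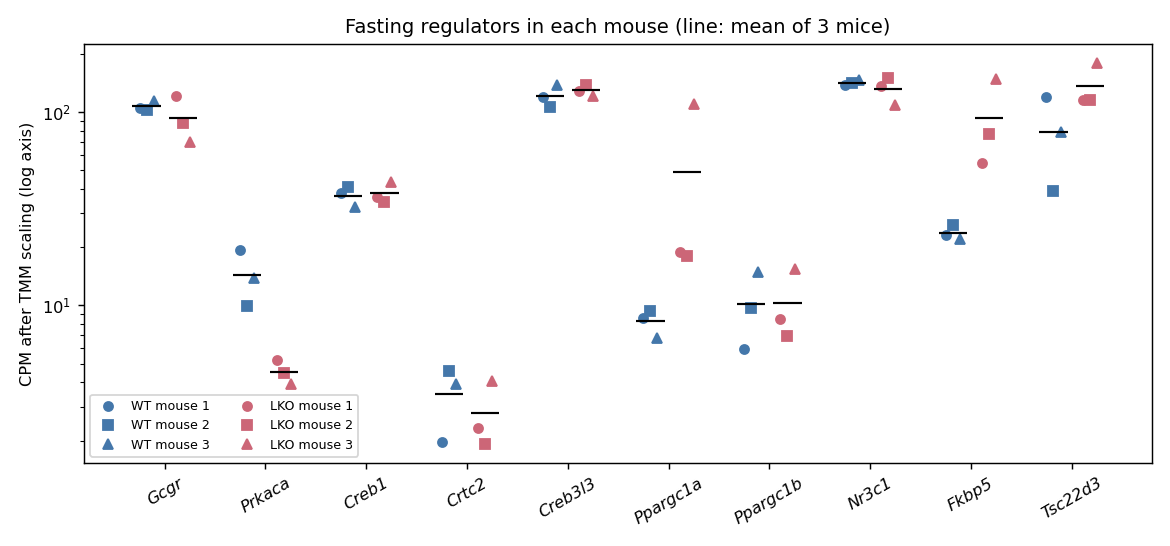
CPM after TMM scaling (log axis) of the 10 regulators, with WT mice in blue, LKO mice in red, a symbol for each mouse number and a line at the mean of 3 mice. *Prkaca* is below the WT range in the 3 LKO mice, *Ppargc1a* and *Fkbp5* are above it, and the *Ppargc1a* mean of LKO mice lies between LKO mouse 3 at 109.8 CPM and the other two near 18 CPM.

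The sequence before the transcription start was examined for the elements through which CREB and the glucocorticoid receptor are known to act. RefSeq promoters of GRCm38.p6, the assembly behind mm10, were at hand for 7 of the 10 genes, with 11 start sites. *Crtc2*, *Ppargc1b* and *Nr3c1* were not matched. The 250 bases before the annotated start are shown for the 3 genes that passed the test, on the strand of the gene, with the cAMP response element half-site TGACG, or CGTCA on the opposite strand, in capitals. The *Prkaca* window is chr8:83972728-83972977 on the plus strand, the *Ppargc1a* window chr5:51567726-51567975 on the minus strand and the *Fkbp5* window chr17:28486150-28486399 on the minus strand. The *Ppargc1a* window lies inside the bounds of the gene, 51454249 to 52115853, and so precedes an internal start. The sequence before the outer end of *Ppargc1a* was not searched.
Prkaca: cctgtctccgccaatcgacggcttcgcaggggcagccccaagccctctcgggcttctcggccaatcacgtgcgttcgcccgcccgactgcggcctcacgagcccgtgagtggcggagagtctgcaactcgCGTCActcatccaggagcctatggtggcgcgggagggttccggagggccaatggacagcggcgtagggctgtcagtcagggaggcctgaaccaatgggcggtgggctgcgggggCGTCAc
Ppargc1a: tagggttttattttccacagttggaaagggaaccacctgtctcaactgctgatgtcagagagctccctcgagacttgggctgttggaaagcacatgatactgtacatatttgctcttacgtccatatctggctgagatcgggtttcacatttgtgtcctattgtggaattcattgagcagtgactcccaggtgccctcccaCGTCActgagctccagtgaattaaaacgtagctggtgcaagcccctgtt
Fkbp5: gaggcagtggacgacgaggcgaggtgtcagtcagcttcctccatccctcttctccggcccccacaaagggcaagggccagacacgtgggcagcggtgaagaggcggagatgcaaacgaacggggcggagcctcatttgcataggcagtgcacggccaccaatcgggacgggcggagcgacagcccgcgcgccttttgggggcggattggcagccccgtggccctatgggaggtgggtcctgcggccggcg
The *Prkaca* window held the half-site 120 and 6 bases before the start, the *Ppargc1a* window held it 49 bases before the start, and the *Fkbp5* window did not hold it. Among the other genes, *Creb3l3* had the half-site 239 bases before a start and *Tsc22d3* had it 224 bases before the third of its starts. In all, 4 of the 11 start sites, in 4 of the 7 genes, had a half-site, and the second *Prkaca* start had none. Of 32851 RefSeq promoters of the same length, counted per start site, 17.8% had it on either strand. The full palindrome TGACGTCA, which contains the half-site, was in 0 of the 7 genes and in 1.55% of promoters, and the glucocorticoid response element, an inverted repeat searched on both strands, was in 0 of the 7 genes and in 0.387% of promoters. A match is a run of letters and not a measured site, and a missing match says only that these letters are absent from the window.

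The receptor, first in the pathway, did not pass the test after TMM scaling. *Gcgr* (Entrez gene 14527) stood at 105, 102 and 114 CPM in WT mice and at 121, 87.5 and 69.6 CPM in LKO mice. LKO mouse 1 lay above the WT mice, and the other LKO mice lay below them, so that the genotypes overlapped. The difference was −0.21 on the log2 scale (95% confidence interval −0.68 to 0.26, adjusted p = 0.45, edgeR). It was called lower with total counts (−1.06, adjusted p = 0.0053, edgeR) and by limma on log2(TPM + 1) (−1.79). The spread of *Gcgr* was narrow in WT mice, whose highest value was 1.11 times the lowest, and wider in LKO mice at 1.73 times.

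*Prkaca* (Entrez gene 18747, chromosome 8 from 83972978 to 83996444 in GRCm38.p6), which encodes the catalytic subunit Cα of PKA, was lower in each LKO mouse than in each WT mouse. It stood at 19.3, 9.90 and 13.9 CPM in WT mice and at 5.20, 4.47 and 3.94 CPM in LKO mice. LKO mice lay close together, and the highest of them lay below the lowest WT mouse, WT mouse 2. The fold change corresponded to a level 3.17 times higher in WT than in LKO mice, or −1.66 on the log2 scale (SE 0.26, 95% confidence interval −2.25 to −1.08, adjusted p = 0.0017, edgeR). This gene passed the test as lower under 22 of 22 alternative settings, with log2 fold changes from −3.08 to −1.38. The ratio of *Prkaca* to *Prkar1a* read counts, the catalytic to a regulatory subunit of PKA within a library, was 0.381, 0.179 and 0.248 in WT and 0.0777, 0.0694 and 0.0436 in LKO mice. The ratio did not overlap between the genotypes and does not depend on how libraries were scaled (log2 difference −2.06, p = 0.1 by a two-sided exact permutation test, which can give no smaller p with 3 against 3 mice).

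A list of 30 genes of glucagon, cAMP and PKA signalling had 29 tested members, of which 2 were higher and 9 were lower in LKO mice, against 19.6% and 20.5% of all tested genes, with a median log2 fold change of −0.17 against −0.04. After *Prkaca*, the largest fall among genes above 1 CPM was in *Pde4a*, a phosphodiesterase that degrades cAMP, which stood at 1.80, 2.55 and 1.69 CPM in WT mice and at 0.636, 0.717 and 1.10 CPM in LKO mice (log2 fold change −1.29, adjusted p = 0.015, edgeR). *Pkia*, an inhibitor of the PKA catalytic subunit, was higher, with 1.17, 1.05 and 0.756 CPM in WT mice and 1.75, 2.49 and 2.21 CPM in LKO mice (log2 fold change 1.11, adjusted p = 0.017, edgeR). Both genes are at a low level, near 1 to 2 CPM. *Pde4a* lost its call without LKO mouse 2 or WT mouse 2 (adjusted p = 0.052 and 0.055, edgeR), as *Pkia* did without LKO mouse 2 or WT mouse 3 (adjusted p = 0.056 and 0.062, edgeR) and with total counts (0.23). The other gene that was higher, *Adcy3*, an adenylyl cyclase named after its value was seen, was under 1 CPM in each mouse. The rest of the 9 falls were in *Adcy7*, *Adcy6*, *Prkar2a*, *Akap13*, *Akap1*, *Gnas* and *Gnb1*, also named after their values were seen, with log2 fold changes from −1.09 to −0.66. They code for adenylyl cyclases, a regulatory subunit of PKA, anchoring proteins that hold PKA in place, and G-protein subunits.

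*Creb1*, *Crtc2* and *Creb3l3* did not pass the test. *Creb1* (Entrez gene 12912), the gene for CREB itself, stood at 38.0, 40.7 and 32.1 CPM in WT mice and at 36.1, 34.1 and 43.5 CPM in LKO mice. The highest and the lowest mouse, LKO mouse 3 and WT mouse 3, were of different genotypes, and the ranges overlapped almost wholly. The difference was 0.04 on the log2 scale, with a 95% confidence interval of −0.32 to 0.40 (adjusted p = 0.86, edgeR).

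*Crtc2* (Entrez gene 74343), whose product is the coactivator that glucagon sends to the nucleus, stood at 1.97, 4.60 and 3.90 CPM in WT mice and at 2.32, 1.92 and 4.04 CPM in LKO mice. It rested on 67 to 301 read counts per mouse, and both genotypes had mice near 2 CPM and near 4 CPM. Its interval was wide, from −1.22 to 0.55 around a log2 fold change of −0.33 (adjusted p = 0.53, edgeR).

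*Creb3l3* (Entrez gene 208677), the gene for CREBH, a membrane-bound factor of the endoplasmic reticulum that is cut free in fasting, stood at 119, 106 and 138 CPM in WT mice and at 129, 138 and 121 CPM in LKO mice. The 3 LKO mice lay inside or at the edge of the WT range. The log2 fold change was 0.09 (95% confidence interval −0.26 to 0.45, adjusted p = 0.65, edgeR). It was called lower with total counts (−0.77) and by limma on log2(TPM + 1) (−1.43). Within a library, the ratios *Crtc2* to *Creb1* (p = 0.5) and *Creb3l3* to *Creb1* (p = 0.8) overlapped between the genotypes as well (two-sided exact permutation tests).

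In the list of CREB factors, coactivators and salt-inducible kinases, 23 of 24 genes were tested, and 3 were higher and 3 were lower in LKO mice, with a median log2 fold change of −0.06. Over all tested genes, 40.1% were called. *Mbtps1*, the site-1 protease that cuts CREBH and other membrane-bound factors, was lower, at 48.0, 43.3 and 43.3 CPM in WT mice and 20.2, 16.1 and 19.7 CPM in LKO mice (log2 fold change −1.27, SE 0.14, adjusted p = 0.00051, edgeR). *Prmt5*, an arginine methyltransferase, was lower too, at a mean of 10.01 CPM in WT mice and 5.88 CPM in LKO mice (log2 fold change −0.77, adjusted p = 0.0076, edgeR). *Creb3*, a relative of CREBH, was higher, with means of 22.0 and 38.4 CPM (log2 fold change 0.80, adjusted p = 0.0040, edgeR). *Sirt1*, a deacetylase, was higher, with means of 12.9 and 21.6 CPM (log2 fold change 0.74, adjusted p = 0.027, edgeR). The rise of *Creb3* and of *Sirt1* turned to a fall with total counts (log2 fold changes −0.070 and −0.12) and with limma on log2(TPM + 1) (−0.71 and −0.69). On those scales the median of all tested genes was −0.90 and −0.79. They push each gene downward, so they could not test the falls of *Mbtps1* and *Prmt5*. *Sirt1* also lost its call without any 1 of the WT mice (adjusted p from 0.076 to 0.079, edgeR). The remaining calls, named after their values were seen, were *Creb3l4* as higher and *Creb3l2* as lower.

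Of 21 known targets of CREB and CRTC2 in fasted liver, 20 were tested, 6 were higher and 1 was lower in LKO mice, against 19.6% and 20.5% of all tested genes, with a median log2 fold change of 0.55. The 6 were *Igfbp1*, *Ppargc1a*, and, named after their values were seen, *Got1*, *Irs2*, *Slc7a2* and *Junb*. *Igfbp1*, which encodes a binding protein for insulin-like growth factors, stood at 37.7, 1.68 and 14.2 CPM in WT mice and at 127, 267 and 1924 CPM in LKO mice (log2 fold change 5.44, SE 1.12, adjusted p = 0.014, edgeR). The 6 mice differed widely within each genotype without overlap between them, and without LKO mouse 3 the log2 fold change was 3.46 (adjusted p = 0.026, edgeR). Without WT mouse 3 it was 5.27 and lost its call (adjusted p = 0.054, edgeR). The 1 lower gene was *Slc2a2*, the glucose transporter GLUT2, with 356, 330.1 and 435 CPM in WT mice and 149, 117 and 43.0 CPM in LKO mice (log2 fold change −1.86, adjusted p = 0.0071, edgeR). Without LKO mouse 3, 4 targets were higher and 2 were lower, where 3517 and 3792 of the 18636 tested genes were.

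*Pck1*, *Sik1* and *Nr4a1*, listed as targets like *Ppargc1a*, did not pass the test. *Pck1*, the rate-limiting enzyme of gluconeogenesis, stood at 763, 576 and 1126 CPM in WT mice and at 925, 1153 and 2006 CPM in LKO mice (log2 fold change 0.73, adjusted p = 0.13, edgeR). *Sik1*, a kinase that CREB induces and that holds CRTC2 in the cytoplasm, stood at 3.72, 2.48 and 9.54 CPM in WT mice and at 2.32, 4.65 and 18.4 CPM in LKO mice (log2 fold change 0.70, adjusted p = 0.49, edgeR). *Nr4a1*, an immediate early nuclear receptor gene, was under 2 CPM in each mouse, with a log2 fold change of −0.65 (adjusted p = 0.53, edgeR). In the 3 genes the genotypes overlapped. Without LKO mouse 3, the log2 fold change of *Pck1* was 0.34, that of *Sik1* turned to −0.60, and *Nr4a1* passed as lower at −2.13 (adjusted p = 0.044, edgeR). Without WT mouse 3 *Nr4a1* was at 0.020.

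The list of 19 known CREBH targets was tested in full and was split, with 7 higher and 6 lower in LKO mice, against 19.6% and 20.5% of all tested genes, and a median log2 fold change of 0.36. *Apoa4*, an apolipoprotein of triglyceride-rich particles, rose the most, from 98.3, 48.0 and 82.8 CPM in WT mice to 1399, 2505 and 1391 CPM in LKO mice (log2 fold change 4.53, SE 0.33, adjusted p = 0.00024, edgeR). *Insig2*, an anchor of the SREBP pathway in the endoplasmic reticulum, rose from 182, 107 and 63.3 CPM to 1360, 1293 and 2262 CPM (log2 fold change 3.80, SE 0.39, adjusted p = 0.00049, edgeR). Both were higher in LKO mice with each scaling that was tried. The fatty acid desaturase genes *Fads2* (log2 fold change −1.85, adjusted p = 0.0019, edgeR) and *Fads1* (−1.82, adjusted p = 0.00058, edgeR) fell the most. The level of the CREBH protein and its cleavage were not measured.

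*Ppargc1a* (Entrez gene 19017, chromosome 5 from 51454249 to 52115853 in GRCm38.p6) had the largest log2 fold change among the 10 genes after TMM scaling with all 6 mice, a place that it lost to *Fkbp5* and *Prkaca* without LKO mouse 3 and to *Prkaca* with total counts. It stood at 8.62, 9.40 and 6.79 CPM in WT mice and at 18.9, 18.0 and 109.8 CPM in LKO mice. Each LKO mouse lay above each WT mouse, and LKO mouse 3 was at 5.95 times the mean of the other LKO mice. Its log2 fold change was 2.56 (SE 0.64, 95% confidence interval 1.11 to 4.02, adjusted p = 0.017, edgeR). The size of the fold change rested on LKO mouse 3, since without it the log2 fold change was 1.16 (adjusted p = 0.0026, edgeR), still past the threshold. Leaving out 1 WT mouse instead left log2 fold changes of 2.44 to 2.65 with adjusted p from 0.051 to 0.061 by edgeR. With total counts it was 1.73 (adjusted p = 0.054, edgeR), and the gene passed the test as higher under 15 of 22 alternative settings. The SD of log2 CPM of *Ppargc1a* among LKO mice, 1.47, was larger than that of 99.8% of tested genes, whereas among WT mice it was 0.229 and larger than that of 68.8%.

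In TPM the same gene looked different. *Ppargc1a* was at 2.60, 3.09 and 1.92 TPM in WT mice and at 2.14, 1.52 and 13.1 TPM in LKO mice. On this scale LKO mice 1 and 2 lay within or below the WT range, and LKO mouse 3 alone lay above it, at 7.14 times the mean of the other two (two-sided exact permutation test, p = 0.9). Before any scaling, it had 643, 615 and 449 read counts in WT and 833, 627 and 5077 in LKO mice. By limma on log2(TPM + 1), the log2 fold change was 0.46 (adjusted p = 0.52).

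*Ppargc1b* (Entrez gene 170826), the gene for the related coactivator PGC-1β, did not pass the test. It stood at 5.91, 9.66 and 14.9 CPM in WT mice and at 8.50, 6.91 and 15.4 CPM in LKO mice. The genotypes overlapped, with 1 mouse of each near 15 CPM, and the log2 fold change was 0.02 (95% confidence interval −0.86 to 0.90, adjusted p = 0.97, edgeR). Within a library, the ratio of *Ppargc1a* to *Ppargc1b* read counts was 1.46, 0.973 and 0.457 in WT and 2.23, 2.60 and 7.12 in LKO mice. Every LKO mouse had more *Ppargc1a* per *Ppargc1b* than any WT mouse, a difference of 2.00 on the log2 scale (two-sided exact permutation test, p = 0.1).

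Among 27 genes of the PGC-1 family, its partners and its regulators, 5 were higher and 2 were lower in LKO mice, against 19.6% and 20.5% of all tested genes, with a median log2 fold change of 0.02. Besides *Ppargc1a*, the largest rise was in *Tfb1m*, a mitochondrial rRNA methyltransferase, from 6.29, 5.30 and 7.92 CPM to 17.4, 21.1 and 20.3 CPM (log2 fold change 1.59, SE 0.19, adjusted p = 0.00059, edgeR). The size of this rise depended on scaling. With total counts *Tfb1m* was higher by 0.73 (adjusted p = 0.010, edgeR). By limma on log2(TPM + 1) its log2 fold change was 0.055 and did not pass, and its TPM overlapped between the genotypes. The median of all tested genes was −0.90 and −0.79 on those scales. *Ppara*, the nuclear receptor of the fasting lipid response that PGC-1α coactivates, stood at 157, 181 and 288 CPM in WT mice and at 98.2, 105 and 83.5 CPM in LKO mice (log2 fold change −1.12, adjusted p = 0.0069, edgeR). *Prkaa2*, a catalytic subunit of AMP-activated kinase, fell by 0.70 on the log2 scale (adjusted p = 0.0062, edgeR). *Tfb2m*, *Rbm39* and *Sirt1* made up the other rises, the first 2 named after their values were seen.

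*Nr3c1* (Entrez gene 14815), the gene for the glucocorticoid receptor, did not pass the test after TMM scaling. It stood at 139, 140.4 and 146 CPM in WT mice and at 136, 149.7 and 109 CPM in LKO mice. LKO mice lay on both sides of the narrow WT range, with LKO mouse 3 the lowest. The log2 fold change was −0.11 (95% confidence interval −0.47 to 0.26, adjusted p = 0.62, edgeR). With total counts it was called lower at −0.98 (adjusted p = 0.0011, edgeR), as it was by limma on log2(TPM + 1) at −1.60.

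*Fkbp5* (Entrez gene 14229, chromosome 17 from 28398753 to 28486149 in GRCm38.p6) was higher in each LKO mouse than in each WT mouse. It stood at 23.1, 26.1 and 22.1 CPM in WT mice and at 54.2, 76.5 and 147 CPM in LKO mice. WT mice lay close together, LKO mouse 1 was the lowest of the LKO mice, and LKO mouse 3 was at 2.26 times the mean of the other LKO mice. The mean level was 3.90 times higher in LKO mice, or 1.96 on the log2 scale (SE 0.32, 95% confidence interval 1.22 to 2.71, adjusted p = 0.0025, edgeR). Without LKO mouse 3 the log2 fold change was 1.46 (adjusted p = 0.0010, edgeR), and the gene passed the test under 19 of 22 alternative settings. The 3 exceptions were the fits of limma to TPM, with log2 fold changes from 0.28 to 0.29, and in TPM LKO mice 1 and 2 lay within or below the WT range at 10.2 and 10.8 TPM. *Fkbp5* overlaps *Gm22146*, which had 1329 counts over the 6 mice, and whether reads were assigned by strand is not given in the sources used here.

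*Tsc22d3* (Entrez gene 14605) varied most among WT mice. It stood at 120.02, 39.1 and 78.7 CPM in WT mice and at 115, 116 and 179 CPM in LKO mice. LKO mice 1 and 2 lay just below WT mouse 1, and LKO mouse 3 lay above all others. The difference was 0.78 on the log2 scale (95% confidence interval −0.06 to 1.63, adjusted p = 0.13, edgeR). The SD of log2 CPM among WT mice, 0.812, was larger than that of 99.1% of tested genes. It passed the test under 1 of 22 alternative settings, without WT mouse 1, at a log2 fold change of 1.22 (adjusted p = 0.039, edgeR). Without WT mouse 2 the value was 0.43, and without LKO mouse 3 it was 0.54.

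The ratio of *Fkbp5* to *Nr3c1* read counts, the sensor to its receptor, was 0.167, 0.186 and 0.151 in WT and 0.399, 0.511 and 1.35 in LKO mice. It did not overlap between the genotypes and was 3.89 times higher in LKO mice (two-sided exact permutation test, p = 0.1). The ratio of *Tsc22d3* to *Nr3c1* was 0.865, 0.278 and 0.539 in WT and 0.845, 0.772 and 1.65 in LKO mice, and WT mouse 1 lay above LKO mice 1 and 2 (two-sided exact permutation test, p = 0.3). The sensors therefore differed in how they separated the genotypes, and the ratio between them, *Fkbp5* to *Tsc22d3*, overlapped (p = 0.3, two-sided exact permutation test).

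**Figure D2:**
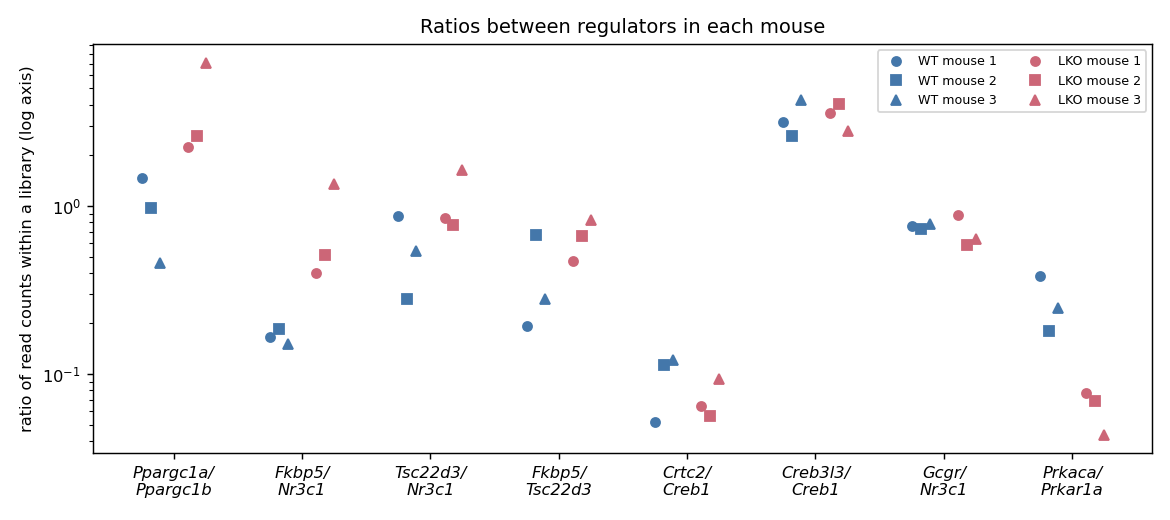
Ratio of read counts of a pair of genes within a library (log axis), with WT mice in blue, LKO mice in red and a symbol for each mouse number. *Ppargc1a* to *Ppargc1b*, *Fkbp5* to *Nr3c1* and *Prkaca* to *Prkar1a* do not overlap between the genotypes, and the other 5 of the 8 ratios do.

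The list of the glucocorticoid receptor, its chaperones and its steroid supply had 25 of 26 genes tested, of which 4 were higher and 10 were lower in LKO mice, against 19.6% and 20.5% of all tested genes, with a median log2 fold change of −0.36. *Serpina6*, corticosteroid-binding globulin, which carries glucocorticoids in blood, stood at 44.8, 29.1 and 47.8 CPM in WT mice and at 3.82, 2.58 and 1.95 CPM in LKO mice (log2 fold change −3.87, SE 0.28, adjusted p = 0.00022, edgeR). *Hsph1*, a heat shock chaperone, fell from 111, 70.6 and 87.7 CPM to 19.0, 23.8 and 31.6 CPM (log2 fold change −1.86, adjusted p = 0.00073, edgeR). *Hsd11b1*, the enzyme that regenerates active glucocorticoid in liver, rose from 268, 232 and 250.4 CPM to 869, 915 and 592 CPM (log2 fold change 1.66, SE 0.21, adjusted p = 0.00073, edgeR). Together with *Fkbp5*, the other higher genes were *Ptges3* and *Bag1*, named after their values were seen. *Hsd11b2*, the enzyme of the reverse reaction and a kidney gene, was at 0 counts in each mouse. With limma on TPM the rise of *Hsd11b1* was 0.11 and did not pass. *Serpina6* and *Hsph1* were lower under each scaling, but total counts and TPM push genes downward in LKO mice and could not turn a fall.

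Of 30 known targets of the glucocorticoid receptor, 15 were higher and 0 were lower in LKO mice by edgeR's quasi-likelihood test, with a median log2 fold change of 1.02, against 19.6% of all tested genes that were higher. At an unadjusted p under 0.05, 16 were higher and 2 were lower by the same test, and the share of all tested genes at that threshold was not counted. After adjustment, DESeq2 called 1 and exactTest 2 as lower, against 3930 and 4154 of all tested genes. The list includes *Fkbp5* and *Tsc22d3*, and it shares *Pck1*, *Tat*, *Per1*, *Dusp1* and *Igfbp1* with the CREB and CRTC2 targets. *Mt1*, a metallothionein, rose from 10.6, 31.9 and 24.0 CPM to 99.2, 340.1 and 515 CPM (log2 fold change 3.84, SE 0.57, adjusted p = 0.0021, edgeR). *Sgk1*, a serum- and glucocorticoid-induced kinase, rose from 23.2, 17.9 and 19.2 CPM to 29.4, 46.6 and 123 CPM (log2 fold change 1.72, adjusted p = 0.0185, edgeR). Without LKO mouse 3 the log2 fold changes were 3.31 for *Mt1* and 0.92 for *Sgk1*, both past the threshold, and *Sgk1* did not pass with total counts (0.87, adjusted p = 0.14, edgeR) or without WT mouse 2 or 3 (1.62 and 1.68, adjusted p = 0.071 and 0.063, edgeR).

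*Tat*, the tyrosine aminotransferase that glucocorticoids and glucagon both induce, stood at 729, 373 and 1004 CPM in WT mice and at 860, 1302 and 2767 CPM in LKO mice. LKO mouse 1 lay within the WT range, and the log2 fold change of 1.23 did not pass (adjusted p = 0.075, edgeR), nor did the 0.62 without LKO mouse 3. *Tat* passed without LKO mouse 1 (1.54, adjusted p = 0.033, edgeR), with DESeq2 (adjusted p = 0.0098) and with exactTest (adjusted p = 0.029). It also passed with protein-coding genes alone (adjusted p = 0.048, edgeR) and with the replicate block, without and with the gene length correction (adjusted p = 0.042 and 0.033, edgeR). In the other settings it did not pass, with 0.39 for total counts (adjusted p = 0.49, edgeR). *Per1*, a clock gene with a glucocorticoid response, stood at 11.6, 11.2 and 13.0 CPM in WT mice and at 10.2, 14.8 and 16.2 CPM in LKO mice (log2 fold change 0.20, adjusted p = 0.44, edgeR). The median log2 fold change of the list fell to 0.16 with total counts, with 9 higher and 5 lower, and to −0.51 with limma on log2(TPM + 1), with 6 higher and 11 lower. The median of all genes moved to −0.90 and −0.79 on those scales. Of all tested genes, 6.26% were higher and 51.4% were lower with total counts, and 2.43% were higher and 71.5% were lower with limma.

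LKO mouse 3 had the highest CPM of the 6 mice in 25 of the 30 glucocorticoid receptor targets, in 13 of the 20 CREB and CRTC2 targets and in 12 of the 27 genes of the PGC-1 list, against 17.8% of all tested genes. It was the highest in 10 of the 23 CREB factors and coactivators, 6 of the 29 genes of cAMP and PKA signalling, 5 of the 19 CREBH targets and 3 of the 25 genes of receptor chaperones and steroid supply. Relative to the mean of the WT mice, the median of the 30 receptor targets was 0.53 in LKO mouse 1, 0.99 in LKO mouse 2 and 1.36 in LKO mouse 3 on the log2 scale. Without LKO mouse 3, 13 receptor targets were higher and 3 were lower, where 3517 and 3792 of the 18636 tested genes were. The median log2 fold change of the targets without this mouse was 0.75. This mouse also had the highest *Pak4* level of the LKO mice, and a summed red blood cell marker level of 1971 TPM against 1008 and 1296 TPM in the other LKO mice and 528 to 928 TPM in WT mice. What part these played in the values was not tested.

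**Figure D3:**
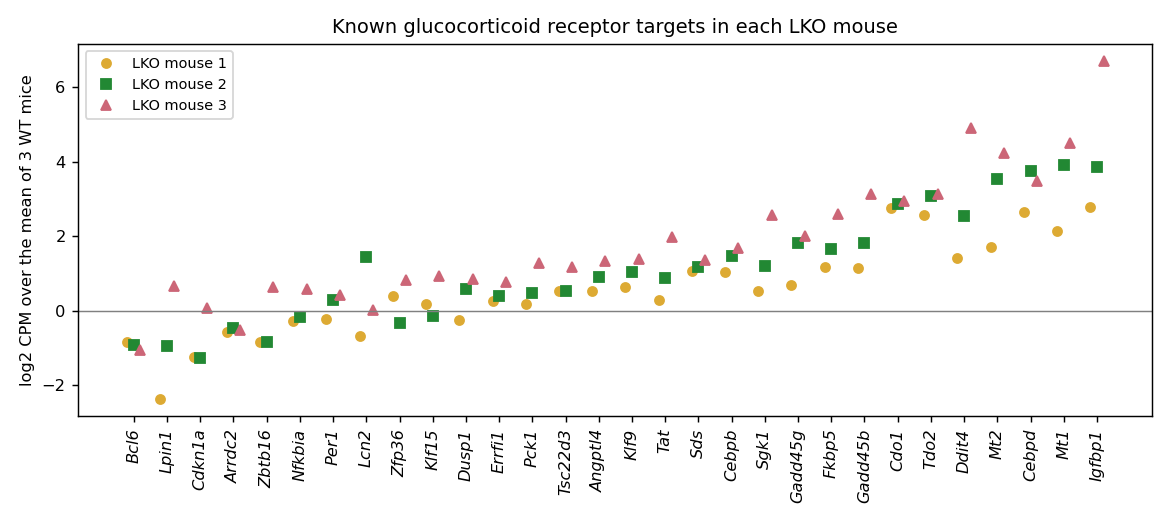
CPM of each of 30 known glucocorticoid receptor targets in LKO mice 1, 2 and 3 over the mean of the 3 WT mice (log2), with genes in order of their mean over the LKO mice. The values of LKO mouse 3 are the highest of the 6 mice in 25 of the 30 genes, and *Igfbp1* is at 6.71 in LKO mouse 3 against 2.79 and 3.86 in the others.

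**Figure D4:**
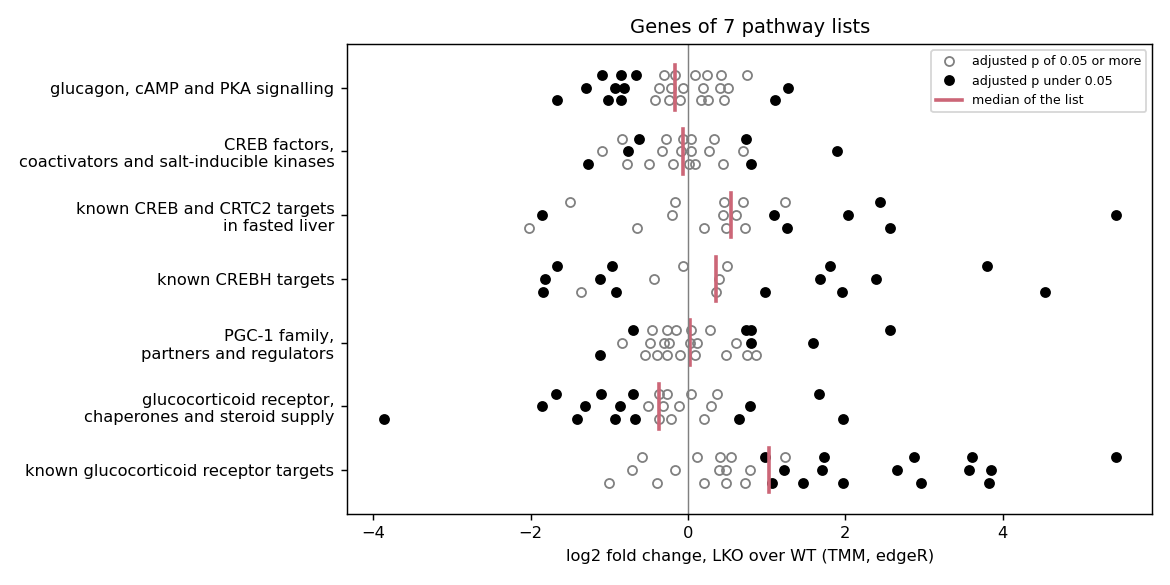
Log2 fold change between LKO and WT mice (TMM, edgeR; above 0, higher in LKO) for each tested gene of 7 pathway lists, filled where the adjusted p was under 0.05 and open otherwise, with a red line at the median of the list. The median lies at 1.02 for the glucocorticoid receptor targets and at −0.36 for the receptor's chaperones and steroid supply.

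Levels between genes were compared in TPM. In WT mice the order of the means ran from *Creb3l3* at 116 ± 8.02 and *Gcgr* at 105 ± 1.38 through *Tsc22d3* at 61.3 ± 30.2, *Nr3c1* at 43.2 ± 1.93, *Prkaca* at 12.2 ± 3.81, *Fkbp5* at 12.1 ± 1.86 and *Creb1* at 10.3 ± 1.81 to *Ppargc1a* at 2.54 ± 0.587, *Crtc2* at 2.32 ± 0.874 and *Ppargc1b* at 1.87 ± 0.793 TPM (SD, n = 3). Neighbours whose ranges overlapped, and whose order is therefore not settled, were *Tsc22d3* and *Nr3c1*, then *Prkaca*, *Fkbp5* and *Creb1*, then *Ppargc1a*, *Crtc2* and *Ppargc1b*. In LKO mice *Prkaca* came eighth, at 1.34 ± 0.298 TPM, and the receptors and CREB factors had means of 42.8 ± 5.09 for *Creb3l3*, 31.0 ± 11.3 for *Gcgr*, 13.6 ± 1.33 for *Nr3c1* and 3.55 ± 0.881 TPM for *Creb1* (SD, n = 3). *Tsc22d3* was at 37.6 ± 14.7, *Fkbp5* at 16.6 ± 10.6, *Ppargc1a* at 5.57 ± 6.49, *Ppargc1b* at 0.672 ± 0.379 and *Crtc2* at 0.662 ± 0.382 TPM. By LKO mean the order was *Creb3l3*, *Tsc22d3*, *Gcgr*, *Fkbp5*, *Nr3c1*, *Ppargc1a*, *Creb1*, *Prkaca*, *Ppargc1b* and *Crtc2*. In that order each neighbour overlapped the next, apart from *Creb1* and *Prkaca*.

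The calls of most of these genes, and the direction of *Creb1*, *Creb3l3*, *Ppargc1b* and *Tsc22d3*, changed with how libraries were scaled. TMM factors ranged from 1.28 to 1.43 for WT libraries and from 0.639 to 0.816 for LKO libraries, and total counts in place of TMM moved the median log2 fold change of all genes by −0.86. With total counts, 6 of the 10 genes were lower (*Prkaca*, *Gcgr*, *Crtc2*, *Nr3c1*, *Creb1* and *Creb3l3*, at −2.51 to −0.77) and *Fkbp5* was higher at 1.10, where 51.4% of all tested genes were lower and 6.26% were higher, 57.6% in all. With total counts of protein-coding genes, 6 were lower and 2 were higher, where 53.3% of the tested genes were lower and 7.31% were higher, 60.7% in all. With limma on log2(TPM + 1), 7 of the 10 were lower and 0 were higher (also 0 at an unadjusted p under 0.05), where 71.5% of all tested genes were lower and 2.43% were higher. Relative to the median of all genes on each scale, *Prkaca* was the lowest and *Ppargc1a* and *Fkbp5* were the highest of the 10.

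**Figure D5:**
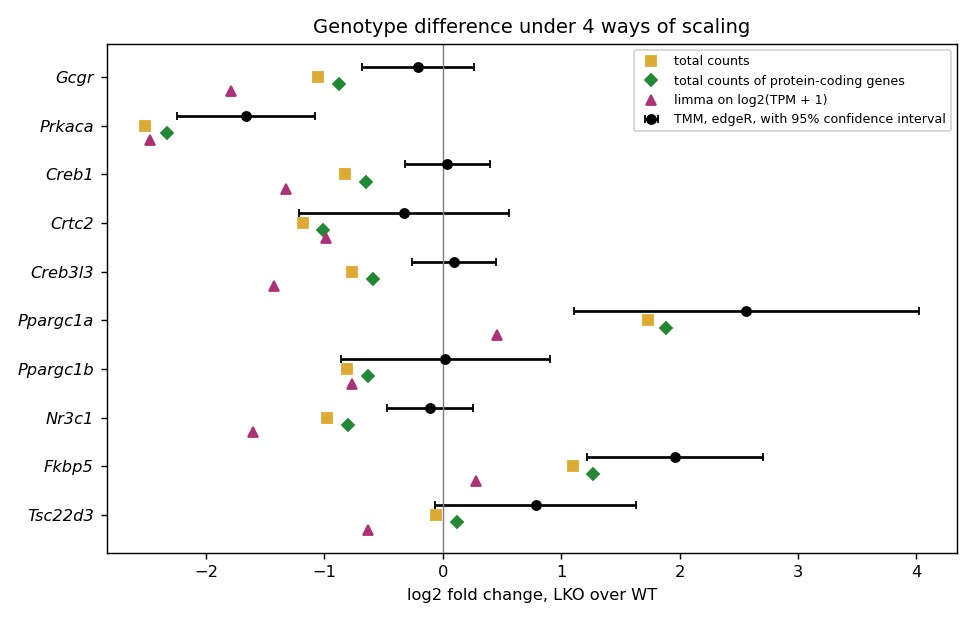
Log2 fold change between LKO and WT mice (above 0, higher in LKO) for the 10 regulators, with black points for TMM and edgeR (bars, 95% confidence interval), yellow squares for total counts, green diamonds for total counts of protein-coding genes and purple triangles for limma on log2(TPM + 1). *Prkaca* lies below 0 on each scale, *Ppargc1a* and *Fkbp5* lie above 0 on each, and the other genes move from near 0 to below it, *Tsc22d3* from 0.78 to −0.64.

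The place of a gene among all tested genes of its own library does not depend on that scaling. By the percentile of TPM, *Prkaca* went from 73.2 ± 6.19 in WT mice to 54.0 ± 2.77 in LKO mice, *Ppargc1a* from 44.5 ± 2.29 to 69.8 ± 15.4 and *Fkbp5* from 73.9 ± 2.00 to 89.0 ± 3.97 (SD, n = 3; two-sided exact permutation tests, p = 0.1 each). The percentiles of *Gcgr* (95.6 to 93.7), *Nr3c1* (90.8 to 88.7) and *Creb3l3* (96.0 to 95.3) were lower by about 1 or 2 points and did not overlap either (p = 0.1 each, exact permutation test). The share of all tested genes whose percentiles did not overlap was not counted, so that the lack of overlap cannot be set against a background. *Creb1*, *Crtc2*, *Ppargc1b* and *Tsc22d3* overlapped between the genotypes (p from 0.3 to 0.9, exact permutation tests).

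Markers of other liver cells moved with genotype beside these results. In CPM, 4 of 7 Kupffer cell and macrophage markers and 4 of 7 sinusoidal endothelial markers were higher in LKO mice. So were 3 of 7 stellate cell markers and 3 of 3 tested neutrophil markers. Over all tested genes, 19.6% were higher and 20.5% were lower. The Kupffer cell marker *Cd68* and the stellate cell marker *Col3a1* were lower. The summed levels of these lists in TPM overlapped between the genotypes, with 133 to 215 in WT and 100.2 to 159 TPM in LKO mice for Kupffer cells, 134 to 181 and 86.9 to 136 TPM for endothelial cells, 158 to 207 and 173 to 235 TPM for stellate cells, and 3.67 to 26.6 and 20.3 to 40.0 TPM for neutrophils. *Gcg*, *Ins1*, *Ins2* and *Ctrb1* of the pancreas and *Cyp11b1* of the adrenal cortex, the sites that make glucagon and corticosterone, were at 0 in each mouse. The 5 pancreas and islet markers summed to 0.055 TPM in WT mouse 2 and to 0 in the other mice. The 4 adrenal cortex markers summed to 1.24 to 1.83 TPM in WT and 0.0764 to 0.120 TPM in LKO mice. Of these, 1 was tested, and it was lower in LKO mice (log2 fold change −1.29). Of the remaining lists, cholangiocyte markers were at 41.0 to 67.4 TPM in WT and 6.93 to 10.9 TPM in LKO mice, T and NK cell markers at 5.12 to 9.83 and 0.866 to 1.41 TPM, and B cell markers at 2.37 to 3.94 and 0.469 to 1.57 TPM. In TPM, 77.9% of all tested genes did not overlap between the genotypes. In CPM, of 4 tested cholangiocyte markers 0 were higher and 1 was lower, with a median log2 fold change of 0.08. Of 5 tested T and NK cell markers 1 was higher and 1 was lower, and of 4 B cell markers 0 were called. The part of other cells in the values of the regulators was not tested.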

How the data were processed

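Liver RNA of 3 WT and 3 LKO mice was sequenced by the authors, 1 library per mouse, and the labels' genotype gave the groups. The methods name 0.5 μg of total RNA and a stranded total RNA kit with rRNA removal, whereas the labels name 1 μg and a stranded mRNA kit, so how RNA was selected is uncertain. Per the labels, HISAT2 2.1.0, Bowtie2 2.3.4.1 and StringTie 2.1.3b were used on mm10. The authors deposited read counts that were not normalized, FPKM (scaled for gene length and depth) and TPM for 45777 genes. StringTie derives its counts from coverage. Use of strand in counting is not given in the sources used here.

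Genes with more than 1 zero count were left out, as in the study. After TMM scaling, genotypes were compared in R 4.3.3 by edgeR 4.0.16 (quasi-likelihood test, two-sided, Benjamini-Hochberg), with genotype as the factor (common biological coefficient of variation 0.254). Ratios took read counts plus 0.5. Total counts of 45934632 to 59576437 set the counting precision, and errors are SDs over 3 mice or SEs of the fit. The members, gene lists and tests were chosen with earlier results of these data known. Named genes are the 10 members, *Pak4*, *Pck1*, *Tat*, *Per1*, *Sgk1*, *Sik1* and *Nr4a1*, and per list the 2 largest rises and 2 largest falls among called genes whose mean reached 1 CPM. The alternatives were other filters, scalings and tools (DESeq2 1.42.0, exactTest, limma 3.58.1 on log2 TPM), a replicate block, a gene length correction (lowess, span 0.3, from the ratio of counts to FPKM) and leaving out each mouse. Total counts of protein-coding genes were an alternative chosen after seeing the data. The procedures were tested on simulated counts. Promoters came from RefSeq (GRCm38.p6); 45679 Entrez numbers matched its gene table.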

Additional observations from a re-analysis of the deposited data

How the results depend on the processing

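The log2 fold change of *Prkaca* was below 0 and those of *Ppargc1a* and *Fkbp5* were above 0 under each of 22 alternatives, with 22, 15 and 19 of them past the threshold, and the counts of calls moved mainly with scaling. With limma on log2(TPM + 1), log2(TPM + 0.1) and log2(TPM + 1) without a filter, 13775, 14002 and 13792 of all genes were called, 453, 467 and 455 higher and 13322, 13535 and 13337 lower; with total counts 1167 were higher and 9575 lower, and with total counts of protein-coding genes 1013 and 7393. In these 5 settings 0, 0, 0, 1 and 2 regulators were higher and 7, 7, 6, 6 and 6 lower, and 6, 6, 4, 9 and 9 receptor targets were higher and 11, 11, 9, 5 and 3 lower. Of the receptor targets, 1 was lower with DESeq2, 2 with exactTest and 2 with at least 10 counts in every mouse. Leaving out 1 mouse gave 1 to 2 higher regulators and 0 to 3 lower receptor targets, where 2796 to 3517 of all genes were higher and 2855 to 3792 were lower.

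In the same order of 5 settings, directions turned for *Creb1* (−1.32, −1.53, −1.32, −0.82, −0.65), *Creb3l3* (−1.43, −1.45, −1.43, −0.77, −0.59), *Ppargc1b* (−0.77, −1.38, −0.77, −0.81, −0.64) and *Per1* (−1.03, −1.40, −1.03, −0.67, −0.49). In the first 4 they turned for *Tsc22d3* (−0.64, −0.65, −0.64, −0.057), *Pck1* (−0.84, −0.84, −0.84, −0.11), *Sik1* (−0.55, −1.03, −0.55, −0.11), *Creb3* (−0.71, −0.74, −0.71, −0.070) and *Sirt1* (−0.69, −0.83, −0.69, −0.12), and in the first 3 for *Tat* (−0.36, −0.37, −0.36), *Sgk1* (−0.060, −0.079, −0.060) and *Pkia* (−0.14, −0.34, −0.14). *Nr3c1* turned with the gene length correction (0.064), with that and the replicate block (0.046) and without LKO mouse 3 (0.011). Without LKO mouse 3, *Creb1* (−0.071), *Ppargc1b* (−0.40) and *Sik1* (−0.60) turned, as did *Ppargc1b* without WT mouse 1 (−0.25) or 2 (−0.028), *Creb3l3* without WT mouse 2 (−0.014), and *Creb1* (−0.057) and *Nr4a1* (0.020) without WT mouse 3. Over the fits that left out 1 mouse, values ran from −0.071 to 0.11 for *Creb1*, −0.014 to 0.19 for *Creb3l3*, −0.40 to 0.41 for *Ppargc1b*, −0.21 to 0.011 for *Nr3c1*, −0.60 to 1.44 for *Sik1* and −2.13 to 0.020 for *Nr4a1*. The cause was not tested.

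With the replicate block 6431 genes were called, and *Prkaca*, *Ppargc1a* and *Fkbp5* kept their calls. Same-numbered mice are different animals whose deviations did not correlate (r from −0.056 to 0.00023), so that the numbers do not pair them. Read counts limit *Crtc2* the most.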
